A study of Mus musculus with 12 samples.

Results

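Cholesterol and fatty acid synthesis under the sterol regulatory element-binding proteins (SREBPs) was described here through 33 genes of the series. These were chosen by their gene symbols from pathway knowledge, with earlier results of these data known. All 33 are listed in the expression table, which holds 25239 genes, and 6 of them carry 6 of the 2643 m6A peaks in the peak table. The data come from HT22 cells, a mouse hippocampal neuronal line labelled as wild type. Cells were exposed to 800 μM mesaconitine (MA), a diester-diterpenoid alkaloid of Aconitum, or to 0 μM as control, in both cases for 72 h. For each condition there are 3 input libraries and 3 anti-m6A IP libraries, 12 libraries in all, made from poly(A)-enriched and fragmented RNA. Whether the 3 libraries of a group came from separate cultures is not given in the sources used here.

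SREBPs are transcription factors made as precursors in the endoplasmic reticulum membrane. When sterols are scarce, Scap escorts them to the Golgi, where they are cleaved, and the released part enters the nucleus and switches on lipid synthesis genes. When sterols are plentiful, Insig proteins hold Scap back. Srebf2 is known mainly for driving cholesterol synthesis and Srebf1 for fatty acid synthesis. m6A is a methyl mark on adenosine in mRNA, usually found at the consensus DRACH, where D is A, G or T, R is A or G, and H is A, C or T.

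Only values given for whole groups were used. The base mean is 1 value a gene over all libraries of the authors' comparison, so it gives a level and says nothing about control against MA. Whether that comparison took the input libraries alone or all 12 is not given in the sources used here. If IP libraries were among them, a level holds m6A enrichment as well as expression. The reads in each peak are given once for each of the 4 groups of libraries and were taken as summed over the 3 replicates. There is therefore no spread between replicates, no test between the conditions was made, and every interval below covers counting error only. The depth of the libraries is unknown. Over all peaks the IP reads summed to 267002 for control and 359889 for MA, and the input reads to 288659 and 214778.

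The neuronal label was set against marker genes. Of 8 neuronal markers, 6 had a base mean under 10, and Map2, Snap25, Nefl and Nefm were listed at 0. Tubb3 and Eno2 had base means of 473 and 534. The collagen genes Col1a1, Col1a2 and Col3a1, on the list for fibroblasts, had base means of 100160, 129498 and 134804, whereas Dcn, the remaining gene of that list, had 145. Of 12 markers of astrocytes, oligodendrocytes and microglia, 4 had a base mean of at least 10, the highest being Tmem119 at 303. The cells are called HT22 cells here for this reason, and the part of this profile in the lipid gene levels was not tested.

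The sequences of the peaks are shown first, since the m6A readout rests on them. Each peak was placed on a transcript of GENCODE release M21 for GRCm38, the assembly named mm10 in the labels, and its exonic bases are printed 5′ to 3′ on the transcribed strand. Capitals mark DRACH matches. The peaks of Acat2, Lrp8 and Acaca held no DRACH, and that of Abca1 held 2. For Elovl6 and Scd1, whose peaks lay in the 3′UTR, a stretch of 21 bases is shown in place of the peak. It lies around the GGACC of Elovl6 and around 2 overlapping matches of Scd1.
Acat2, chr17:12956227-12956276, minus strand: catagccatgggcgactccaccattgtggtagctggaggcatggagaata
Lrp8, chr4:107823247-107823296, plus strand: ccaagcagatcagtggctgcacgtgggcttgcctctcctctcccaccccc
Acaca, exonic bases of chr11:84322614-84338322, plus strand: tccaggaggaaatgagattggcatg
Abca1, exonic bases of chr4:53036916-53038170, minus strand: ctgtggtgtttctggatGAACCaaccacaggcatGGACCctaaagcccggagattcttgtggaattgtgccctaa
Elovl6, chr3:129636246-129636266, plus strand: acgaggctGGACCactggcct
Scd1, chr19:44394678-44394698, minus strand: cttcccagAGACTGACAgata

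The whole Elovl6 peak, chr3:129636245-129636419, held 5 DRACH matches in 175 bases, and the whole Scd1 peak, chr19:44394625-44394724, held 6 in 100 bases. DRACH was thus present in 3 of the 6 peaks, beside 73.7% of the 2520 peaks that could be placed on the gene they name. Over the 475 bases of the 6 peaks there were 2.74 matches in 100 bases, and over all placed peaks 1.90. The motif is common at these lengths. Among placed peaks of like length, from 0.5 to 2 times as long, 67.5% held it at the 50 bases of the Acat2 and Lrp8 peaks and 59.3% at the 25 bases of the Acaca peak. The shorter GGAC was present in 2 of the 6 peaks, those of Abca1 and Elovl6, beside 31.5% of all placed peaks.

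**Figure D1:**
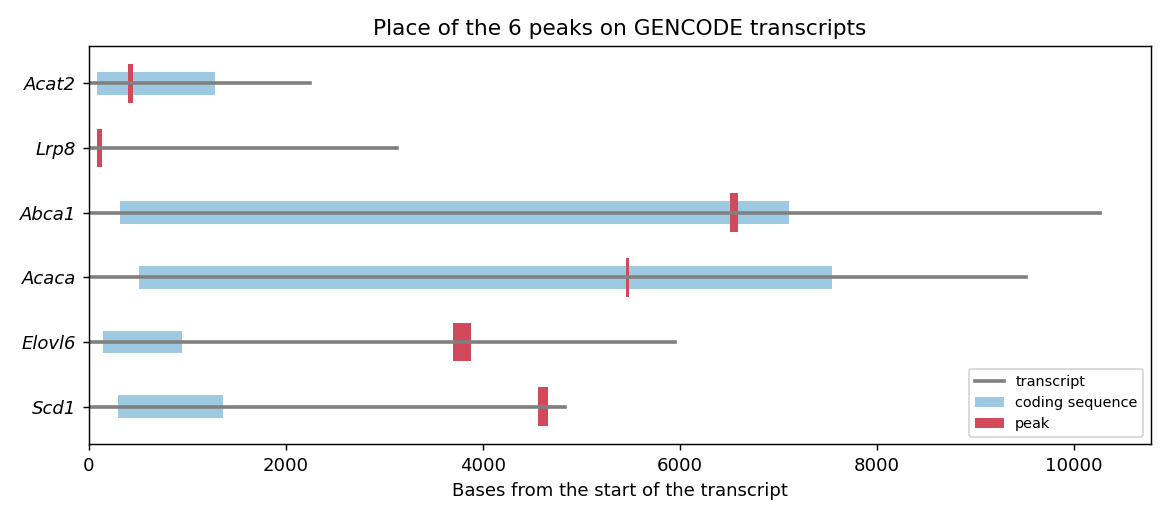
The 6 peaks (red) drawn on the transcripts (grey line) that hold them, in bases from the start of the transcript, with the coding sequence in blue. The peaks of Acat2, Abca1 and Acaca lie in the coding sequence, those of Elovl6 and Scd1 in the 3′UTR, and that of Lrp8 at the start of a transcript without a coding sequence.

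By its midpoint, a peak lay in the coding sequence for Acat2 (exon 3 of 9), Abca1 (exons 46 and 47 of 50) and Acaca (exons 41 and 42 of 56). Of all peaks placed on coding transcripts, 56.4% lay in the coding sequence, 34.0% in the 3′UTR and 9.62% in the 5′UTR, where no peak of these genes lay. The Elovl6 and Scd1 peaks lay in the last exon of their genes, 2842 and 3244 bases after the stop codon. The Lrp8 peak lay in an intron of the coding transcripts and in exon 1 of a processed transcript of the same gene. Lrp8 encodes a lipoprotein receptor that also binds reelin.

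Exact copies bear on 2 of the peaks, and both were looked for after the values were seen. The 50 bases of the Acat2 peak occur with 0 mismatches in Acat3, a neighbouring gene on the same strand of chromosome 17 with a base mean of 343 and no peak in the table. The 25 exonic bases of the Acaca peak occur with 0 mismatches in Gm5182, a processed pseudogene on chromosome 12. Reads of these 2 peaks could belong to either copy, and their values are uncertain for that reason. The exonic bases of the other 4 peaks occur whole in no transcript of another gene.

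Most of the lipid synthesis genes lay above the median gene in level. To set genes side by side, the base mean was divided by the length of the longest coding transcript, and a gene was ranked among the 11535 genes with a base mean of at least 10 and a coding length. The median over the 33 genes was 812 per kb and that over all ranked genes 386 per kb. The minimum of 10 was passed by 32 of the 33 genes, and 24 of these 32 lay above the median of the ranked genes. Only Abcg1 did not pass. Of the 32, 3 lay above the 90th percentile and only Tm7sf2 lay below the 25th.

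Single levels, and the order of genes within a group, depended on the length used. With the exons of all transcripts of a gene joined, 10 of the 33 genes, Scap, Mvk, Fdps, Sqle, Lss, Tm7sf2, Msmo1, Dhcr7, Lrp8 and Acaca, had a level over 1.5 times lower. With the mean length of a gene's coding transcripts, 18 of the 33 had a level over 1.5 times higher, among them Srebf2, Insig2, Msmo1 and Scd1. Scd2 was the highest and Abcg1 the lowest gene with all 3 lengths. The levels below use the longest coding transcript, and only some of the changes of order are given beside them.

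**Figure D2:**
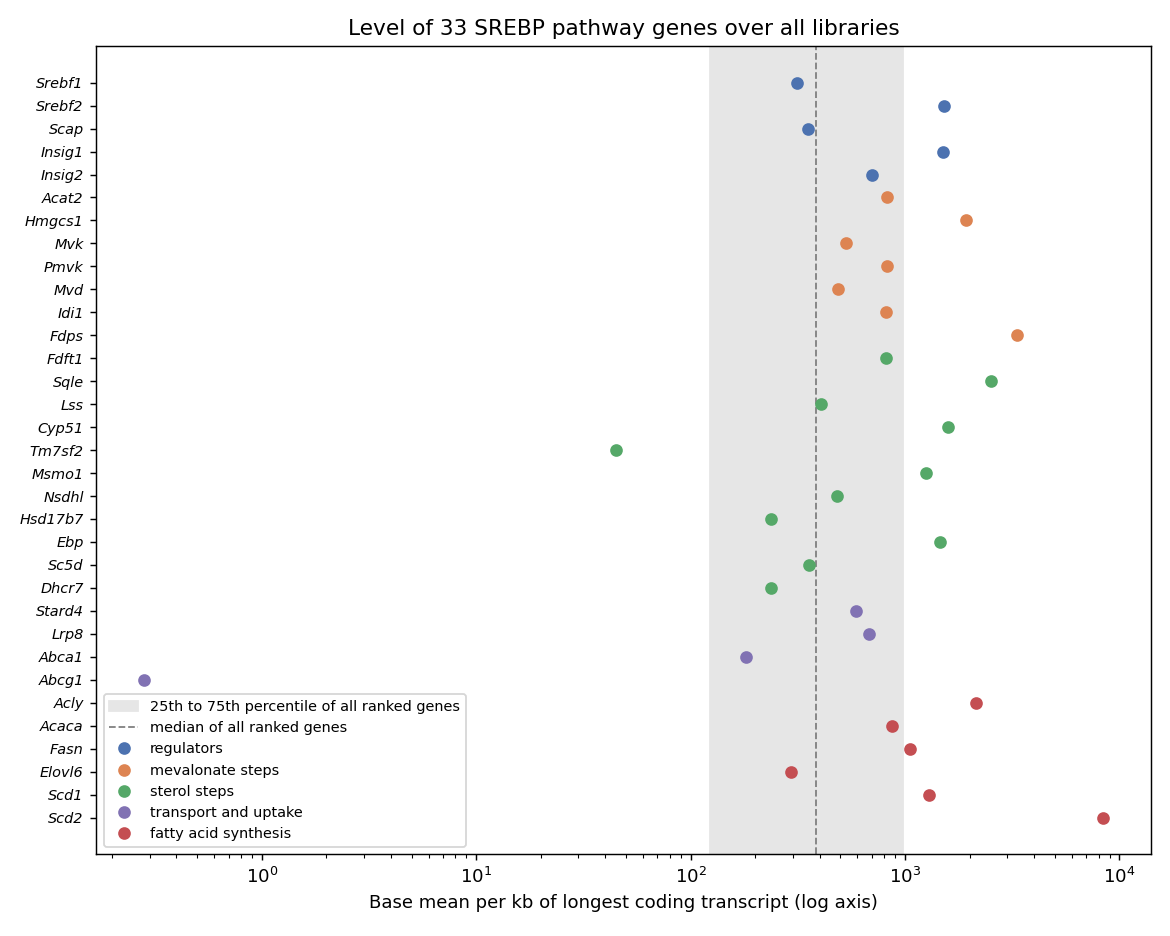
Base mean per kb of the longest coding transcript (log axis) for the 33 genes, coloured by role, with the median of all ranked genes as a dashed line and their 25th to 75th percentiles in grey. Scd2 stands furthest right at 8345 per kb, Abcg1 furthest left at 0.28 per kb, and 12 genes lie to the right of the grey band.

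Among the regulators, Srebf2 and Insig1 had the higher levels, though with the mean coding length Insig2 lay above Insig1. Srebf2 had 1525 per kb, at percentile 84.3 of all ranked genes, and Srebf1 had 313 per kb, at percentile 44.2. The level of Srebf2 per kb was 4.87 times that of Srebf1. Insig1, which is itself a target of SREBPs, had 1508 per kb, 2.14 times the 703 per kb of Insig2. With the mean coding length the direction turned, at 1508 per kb for Insig1 and 2184 per kb for Insig2. Scap, which escorts both SREBPs, had 354 per kb. These are single values over the libraries of the comparison, so neighbours in the order cannot be told apart by a spread.

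All 7 genes of the mevalonate steps lay above the median of the ranked genes. Acat2, which makes acetoacetyl-CoA in the cytosol, had 824 per kb. Hmgcs1, which makes HMG-CoA, had 1933 per kb, at percentile 88.4. The kinases Mvk and Pmvk, which phosphorylate mevalonate in turn, had 529 and 823 per kb, and the decarboxylase Mvd had 485 per kb. Idi1, which isomerises the isoprenoid unit, had 812 per kb. Fdps, which joins these units to farnesyl diphosphate, had 3338 per kb, at percentile 93.7, the highest of the group with this length.

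The Fdps value is uncertain, since 81.5% of the stretches of 50 bases along its longest coding transcript are also found in other genes. Gm43738, which shared the most at 20 stretches, overlaps Fdps on the same strand of chromosome 3. Next came Gm3571, a processed pseudogene on chromosome 10, with 10 stretches. With the exons of all its transcripts joined, its length was greater and its level was 1096 per kb, below the 1458 per kb of Hmgcs1 on the same scale. The same share was 52.6% for Acaca, 46.7% for Acat2, 21.7% for Idi1 and 11.0% for Fdft1, so the levels of these 4 genes share the doubt. For 23 of the 33 genes no stretch was shared, and for the other 5 the share was under 5%.

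The 11 genes of the sterol steps covered a wide range. Fdft1, which makes squalene, had 817 per kb, and Sqle, the squalene epoxidase that is a rate-limiting enzyme of the sterol branch, had 2524 per kb, at percentile 91.4. Sqle was the highest of the group with this length, but with joined exons it had 1255 per kb and Cyp51 had 1419 per kb. Lss, which closes the sterol rings to lanosterol, had 407 per kb. Of the demethylation enzymes, Cyp51 had 1594, Msmo1 1247, Nsdhl 479 and Hsd17b7 236 per kb. Cyp51 and Msmo1 changed places with the mean coding length, at 1594 and 2522 per kb.

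In the last sterol steps, the isomerase Ebp had 1456 per kb, the desaturase Sc5d 355 per kb and Dhcr7, the reductase that makes cholesterol from its direct precursor, 238 per kb. Tm7sf2, a sterol C14 reductase, was the lowest synthesis gene at 45.1 per kb, from a base mean of 67.5, at percentile 14.2. Levels in this branch therefore spanned percentiles 14.2 to 91.4 of all ranked genes, and 7 of the 11 genes lay above the 50th.

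Fatty acid synthesis held the single highest value. Scd2, a stearoyl-CoA desaturase that puts the first double bond into saturated fatty acids, had a base mean of 45522, or 8345 per kb, at percentile 98.0. It made up 29.6% of the summed base mean of the 33 genes. Scd1, its paralogue, had 1289 per kb, so the level of Scd2 was 6.48 times as high, and 3.46 times with the mean coding length. Stretches of 50 bases were shared with other genes for only 4.17% of Scd1 and 4.59% of Scd2.

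Acly, which makes cytosolic acetyl-CoA from citrate, had 2134 per kb, at percentile 89.7. Acaca, the acetyl-CoA carboxylase that commits carbon to fatty acids, had 874 per kb, and Fasn, the fatty acid synthase, had 1051 per kb. Elovl6, which lengthens palmitate, was the lowest of the group at 295 per kb. Of these 6 genes, 5 lay above the median of the ranked genes.

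The 4 genes for sterol transport and uptake had levels of at most 676 per kb, and of at most 1354 per kb with the mean coding length. Stard4, a carrier of cholesterol between membranes, had 592 per kb, and Lrp8 had 676 per kb. Stard4 lay above Lrp8 with joined exons, at 540 and 426 per kb, and with the mean coding length, at 1354 and 1134 per kb. Abca1, which exports cholesterol to apolipoproteins and is a target of liver X receptors rather than of SREBPs, had 180 per kb, at percentile 31.5. Abcg1, another exporter controlled by liver X receptors, had a base mean of 1.65.

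A list of 16 further genes of lipid synthesis and sterol handling was set beside these. A base mean of at least 10 was found for 15 of them, and 11 lay above the median of the ranked genes. Mbtps1, the protease that makes the first cut in SREBPs, had 2866 per kb, and Mbtps2, which makes the following cut, had 248 per kb. Of the genes for liver X receptors, Nr1h2 had 843 per kb, whereas Nr1h3 had a base mean of 0.89. Peaks lay on 3 of the 16 genes, Ggps1, Acacb and Mbtps2, beside 15.6% of all genes with a base mean of at least 10.

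Promoter sequence was available from RefSeq for 26 of the 33 genes, as 36 promoters of GRCm38.p6, each 300 bases long around a start site. Matches were counted on both strands. The letters CCAAT, the core of the NF-Y site, were present in 58.3% of these promoters, in 38.2% of the 21263 promoters of coding genes and in 37.4% of all 32851 promoters. The GC box GGGCGG, the core of the Sp1 site, was present in 69.4%, 46.2% and 35.7%. The E-box CACGTG was present in 19.4%, 7.84% and 7.15%, in genes such as Insig1, Scap and Dhcr7. The sterol regulatory element in the form TCACCCCAC was present in 1 of the 36 promoters, that of Hmgcs1, and in 0.54% of coding and 0.55% of all promoters. The shorter CACCCCAC, which lies inside that form, was present in 2 of the 36, those of Acat2 and Hmgcs1, or 5.56%, beside 2.88% and 2.87%. A match is a description of letters only, and no further forms of these elements were searched.

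Of the 33 genes, 6 carried a peak in the deposited list. Among the 12435 genes of the table with a base mean of at least 10, 15.6% carried one. The study describes more peaks, on more genes, than the deposited list holds. A gene without a listed peak may therefore still carry m6A, and these shares are not shares of methylated genes. The median length of the longest coding transcript was 6289 bases for the 6 genes with a peak and 3464 bases for the 27 without. Over all ranked genes these medians were 4092 bases with a peak and 3001 bases without. Scd2, the gene with the highest level, carried no listed peak. With both conditions pooled, the ratio of IP to input reads in the 6 peaks ran from 0.816 to 1.28 times that of the median peak.

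The change of m6A signal was measured as the ratio of IP to input reads in MA over the same ratio in control. The median of this change over the 2467 peaks with at least 10 reads in each of the 4 groups of libraries was 0.88 on the log2 scale, which holds the unequal depth of the libraries as well as any common shift. The median ratio of IP to input reads was 0.955 in control and 1.78 in MA, so a ratio below 1 in control and above 1 in MA was common to the median peak. All changes were therefore taken relative to this median peak. Over 1.5-fold higher than the median peak were 26.5% of these peaks, and 24.9% were over 1.5-fold lower. The central 50% of all changes lay between -0.58 and 0.62 on the log2 scale.

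**Figure D3:**
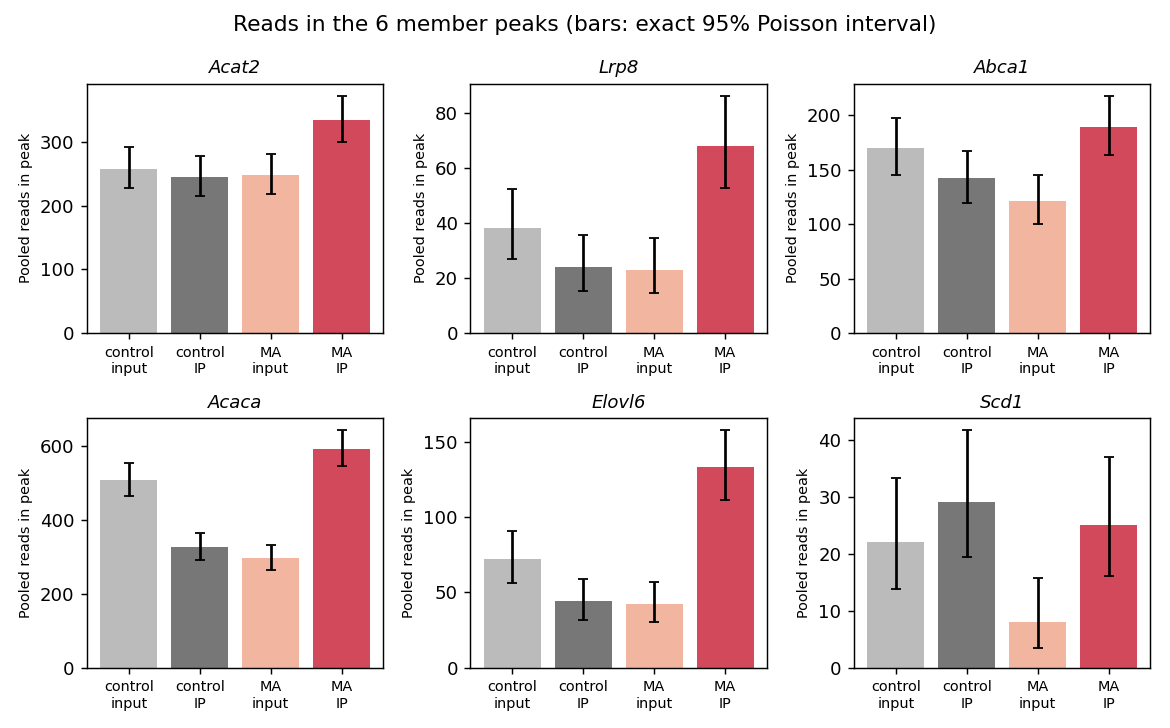
Reads in each of the 6 peaks for the input and IP libraries of control and of MA, each taken as summed over 3 libraries. Axes start at 0, and the intervals are exact Poisson 95% intervals. In all peaks but that of Scd1 the IP reads are fewer than the input reads in control and more in MA, as they were in the median peak of the table.

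In the Elovl6 peak, control cells gave 72 input and 44 IP reads, and MA-treated cells gave 42 input and 133 IP reads. IP over input reads thus came to 0.611 in control and to 3.17 in MA, further apart than the 0.955 and 1.78 of the median peak. Relative to the median peak the ratio was 2.78-fold higher in MA, a log2 change of 1.48 (95% interval 0.74 to 2.21), at percentile 93.1 of the 2467 peaks.

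The Lrp8 peak had fewer reads. Control cells gave 38 input and 24 IP reads, and MA-treated cells 23 input and 68 IP reads. The log2 change was 1.32 (95% interval 0.32 to 2.31), or 2.49-fold, at percentile 90.8.

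The Acaca peak had the most reads of the 6. There were 507 input and 326 IP reads in control, and 297 input and 592 IP reads in MA. Its log2 change was 0.75 (95% interval 0.47 to 1.04), or 1.68-fold, at percentile 79.2, and this is the peak whose bases also occur in Gm5182.

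The Abca1 peak lay beside the median peak. Control cells gave 170 input and 142 IP reads, and MA-treated cells 121 input and 189 IP reads. The log2 change was 0.02 (95% interval -0.44 to 0.48).

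The Acat2 peak pointed the other way. It had 258 input and 245 IP reads in control, and 248 input and 335 IP reads in MA. The log2 change was -0.37 (95% interval -0.72 to -0.03), or 0.77 of the ratio in the median peak, at percentile 32.9. Its IP reads were higher in MA as counted, and the change is lower only relative to the other peaks.

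The Scd1 peak had too few reads for this comparison, with 22 input and 29 IP reads in control and 8 input and 25 IP reads in MA. Its log2 change of 0.32 had a 95% interval from -1.06 to 1.69, so no change was detectable at this depth.

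**Figure D4:**
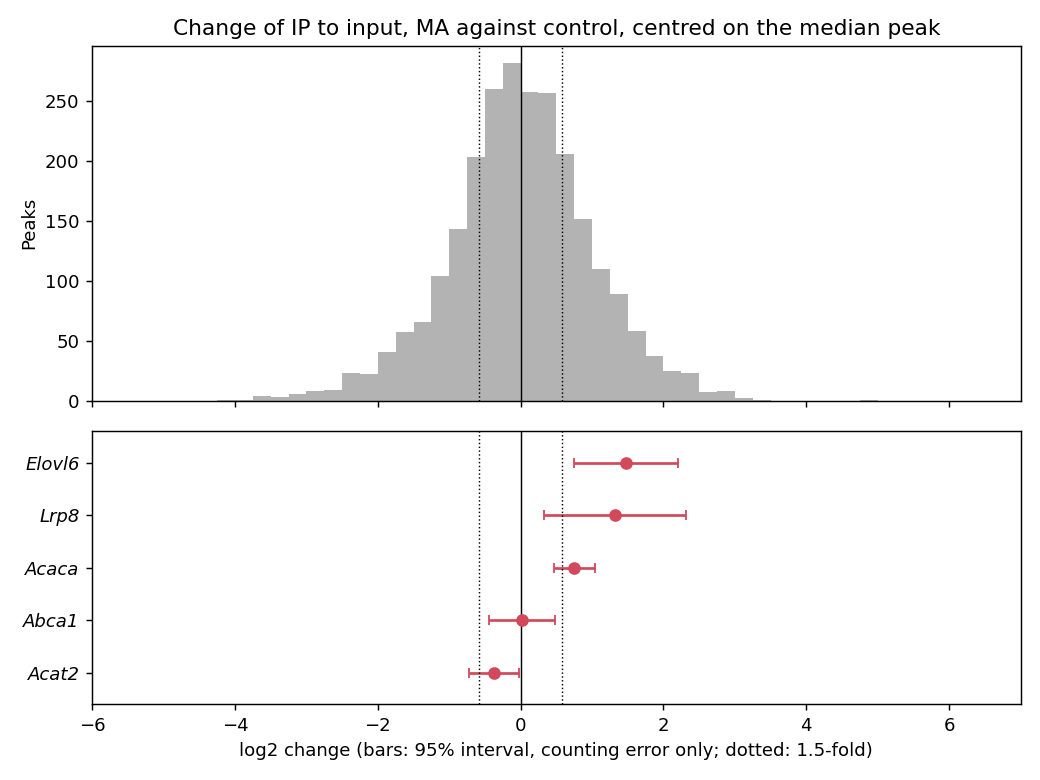
Top, histogram of the log2 change of IP to input, MA against control, for the 2467 peaks with at least 10 reads in each group, centred on their median. Bottom, the 5 peaks on the lipid genes that passed this minimum, with 95% intervals for counting error, where Elovl6 (1.48), Lrp8 (1.32) and Acaca (0.75) lie past the dotted line of 1.5-fold.

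Of the 5 peaks with enough reads, 3 were over 1.5-fold higher and 0 over 1.5-fold lower than the median peak. The shares over all 2467 peaks with enough reads were 26.5% and 24.9%. The median log2 change of the 5 was 0.75. A number of 5 peaks is too small to set the genes apart from the rest, and 2 of the 5 have an exact copy elsewhere. Among the 3 higher peaks, those of Lrp8 and Acaca held no DRACH, and that of Lrp8 lay in an intron of the coding transcripts. In control cells the ratio of IP to input was low in the 3 peaks that were higher in MA. It stood at percentile 5.90 of the 2467 peaks for Elovl6, 7.32 for Lrp8 and 7.97 for Acaca. In MA-treated cells the same ratio stood at percentiles 90.6, 87.9 and 61.4. The change is made from these same ratios. A low ratio in control and a high one in MA are thus partly built into picking peaks by their change, and are not a further trait.

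Both kinds of library entered these changes. Relative to the median peak, the IP reads of the Elovl6 peak were higher in MA by 1.12 on the log2 scale (95% interval 0.63 to 1.61) and its input reads differed by -0.33 (95% interval -0.87 to 0.22). For Lrp8 the values were 1.02 (95% interval 0.36 to 1.69) in IP and -0.27 (95% interval -1.01 to 0.47) in input. For Acaca they were 0.40 (95% interval 0.20 to 0.59) in IP and -0.33 (95% interval -0.53 to -0.12) in input.

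In the Acat2 peak the values were -0.01 (95% interval -0.25 to 0.23) in IP and 0.39 (95% interval 0.14 to 0.64) in input. The lower ratio of Acat2 thus came with higher input reads. In Elovl6 and Lrp8 the IP interval lay above 0 and the input interval held 0. In Acaca higher IP reads and lower input reads were of like size. The input change was -0.33 in both Elovl6 and Acaca. The Elovl6 interval is wider since it rests on 72 and 42 input reads, against 507 and 297 for Acaca. Input reads in a stretch of this size are not a measure of the whole gene. In bulk samples, fewer cells with a given RNA and less of that RNA per cell cannot be told apart.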

How the data were processed

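HT22 cells were profiled by MeRIP-seq with input and anti-m6A IP libraries from control and MA-treated cells, 3 libraries in each of 4 groups. Dose and time are those of the study's methods. In the authors' pipeline, fastp was used for the raw reads, HISAT2 for alignment to mm10, StringTie for quantification, DESeq2 for the comparison of genes, and exomePeak2 for peaks. Versions, and how the deposited list of peaks, shared by both conditions, was made from the calls, are not given in the sources used here. The base mean, as deposited, is a signal that DESeq2 averages over the libraries of the comparison after dividing by size factors. The counts of reads per peak were deposited by the authors as 1 whole number for each group, and their sum over replicates was assumed. Columns of the authors' own comparisons (fold changes, log2 ratios, statistics, scores and p-values) were not used, so expression after MA treatment against control is not reported. The number of columns of single libraries left out is 0.

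Peaks were placed with GENCODE M21, taking the coding transcript of the named gene with the most exonic bases in the peak. Changes used 0.5 reads added to each count and a minimum of 10 reads in each group. Their 95% interval came from the sum of the reciprocals of the reads. Both were tested on simulated reads with counting error only. That test could not show whether the intervals cover the spread between replicates. Computations used scipy 1.17.1, pandas 2.3.3 and numpy 2.4.6 in Python 3.11.15, with matplotlib 3.10.9. All 33 genes and every peak on them are named. The genes and lists were chosen with earlier results of these data known, and the pairs of genes set side by side after their values were seen. Alternatives were other gene lengths, centring, pseudocounts, read minimums, fold thresholds and motifs.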

Additional observations from a re-analysis of the deposited data

How the results depend on the processing

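No paired analysis was possible because both tables give values for whole groups only, and leaving out single replicates was not run for the same reason. The median level of the 33 genes moved with the length used, from 812 per kb to 540 per kb with the joined exons of all transcripts and 1198 per kb with the mean coding length. Joined exons are never shorter than the longest coding transcript, and the mean coding length is never longer. Levels of any gene can move only in these directions, and the median of all ranked genes at these lengths is not given. The ratio of Insig1 to Insig2 turned from 2.14 to 0.69 with the mean coding length. The number of genes above the median of the ranked genes was 24, and 25 to 28 under the 3 alternatives. The median change of the 5 peaks lay between 0.75 and 0.79 under the alternative centring and pseudocounts. All 15 single-peak values under these alternatives lay inside the intervals given, with a largest shift of 0.18. Peaks over the fold threshold numbered 2 to 4 higher in place of 3, with 2 at a minimum of 30 reads, 2 at 2-fold and 4 without centring. At 1.2-fold, 1 peak was lower in place of 0, that of Acat2. With peaks kept only where the pooled ratio of IP to input was at least 1.5 times that of the median peak, 0 of the 33 genes carried a peak in place of 6. Shares over all peaks or genes at these other settings are not given here, so these counts do not set the 33 genes apart. Few reads limited the Scd1 and Lrp8 peaks most.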
